A study of Mus musculus with 22 samples.

Results

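The genes described here are 10 that glucocorticoid hormone is known to induce, chosen by symbol in the expression table and followed across 4 treatment groups. They were Tsc22d3, Sgk1, Zbtb16, Dusp1, Klf9, Errfi1, Cdkn1a, Mt1, Mt2 and Pdk4, which is 10 of the 17306 genes in the table. All 10 were among the 16765 genes that passed the filter on low values and were tested.

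Corticosterone, the main glucocorticoid of mice, binds the glucocorticoid receptor, which then moves to the nucleus and switches on genes that carry glucocorticoid response elements. FKBP51, the product of Fkbp5, is a co-chaperone that sits with Hsp90 on the unbound receptor and lowers its affinity for hormone, and Fkbp5 is itself induced by the receptor. SAFit2 is a selective FKBP51 inhibitor, and the induced genes named above are a usual readout of receptor activity, although each of them also answers to other signals.

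RNA was sequenced from the lumbar spinal cord (L4-L6) of 22 male wildtype C57BL6J mice aged 12-14 weeks when collected. By the study's account the tissue was the dorsal horn quadrant on the injured side, not the whole cord. All the mice had received 1 mg of monosodium iodoacetate (MIA) in the knee, an injury that leaves lasting joint pain. The 5 Early SAFit2 and 5 Late SAFit2 mice received 100 mg/kg of SAFit2 in a vesicular phospholipid gel (VPG), and the 6 Early Vehicle and 6 Late Vehicle mice received the gel alone. By the study's methods the early mice were injected on days -3 and 4 and the late mice on days 20 and 27 relative to MIA, with cord taken on day 30; the labels give day 3 for the first early injection, and the titles of the Early SAFit2 mice read SAFit1. The labels also call Early and Late 2 batches, so timing and batch cannot be told apart, and no uninjured mice were analysed here.

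Expression is given as log2 CPM (counts scaled to library size, on a log2 scale), from which whole reads were recovered. Reads on genes ranged from 11352989 to 24433349 per library, and no 2 libraries were identical. Marker genes of neurons, astrocytes, oligodendrocytes and microglia had summed levels well above 0 in every library. Some libraries stood apart. Skeletal muscle genes summed to 196 CPM in Late SAFit2 replicate 3 and 143 CPM in replicate 5, against 1.63 to 8.92 CPM in the other libraries. The GC slope of a library, meaning how far its genes moved on the log2 scale for each 10 percentage points of GC content, ran from -0.48 to -0.05 in Late SAFit2 mice. In Late Vehicle mice it ran from -0.32 to 0.49, with replicates 2 and 6 negative and the other 4 positive. Medians were -0.33 in Late SAFit2 and 0.30 in Late Vehicle mice. The slope thus went largely with treatment in the late course, and a covariate for it cannot fully separate them. Oligodendrocyte markers summed to 30572 CPM in Early Vehicle replicate 4 and 32067 CPM in replicate 5, against 14560 to 23245 CPM in the other libraries. Replicates 4 and 5 had 1026 and 443 genes at 0 reads, against 52 to 98 in the other Early Vehicle libraries. Elsewhere these counts were 130 to 471 in Early SAFit2, 434 to 1148 in Late SAFit2 and 245 to 661 in Late Vehicle libraries. Results are also given without Late SAFit2 replicates 3 and 5 and without Late Vehicle replicates 2 and 6. They are given with the GC slope as a covariate too, all chosen after the data were seen. Early Vehicle replicates 4 and 5 were left out singly but not as a pair.

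Promoter stretches of 3 members are shown because they hold, or in one case lack, the letters through which the receptor is known to act. Of the 10 genes, 9 matched RefSeq promoter windows (GRCm38.p6), with 18 windows between them, and Zbtb16 had no entry. The response element was searched as GNACA and TGTNC with 3 bases between them, on both strands and in the 250 bases before each start. It was found in 0.39% of 32851 such windows, among them 1 of the 6 windows of Sgk1 and the single window of Mt1. In the first stretch below (chr10:21993640-21993889, plus strand) the capitals mark that match together with the overlapping half-sites AGAACA and TGTTCT, and a separate half-site; half-sites were present in 16.1% of all windows.
Sgk1: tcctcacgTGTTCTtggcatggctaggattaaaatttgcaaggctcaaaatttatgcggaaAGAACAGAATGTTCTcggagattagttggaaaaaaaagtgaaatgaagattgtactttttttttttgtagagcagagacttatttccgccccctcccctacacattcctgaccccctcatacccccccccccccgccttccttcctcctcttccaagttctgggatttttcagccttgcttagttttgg
Metallothionein genes are known for metal response elements, which were searched as the cores TGCGCNC and TGCACNC, present in 12.5% and 10.4% of all windows. The stretch of Mt2 (chr8:94172368-94172617, plus strand) held 1 of the first and 2 of the second, in capitals below, and no match to the glucocorticoid element. It overlaps an exon of Gm45774, a gene annotated on the other strand.
Mt2: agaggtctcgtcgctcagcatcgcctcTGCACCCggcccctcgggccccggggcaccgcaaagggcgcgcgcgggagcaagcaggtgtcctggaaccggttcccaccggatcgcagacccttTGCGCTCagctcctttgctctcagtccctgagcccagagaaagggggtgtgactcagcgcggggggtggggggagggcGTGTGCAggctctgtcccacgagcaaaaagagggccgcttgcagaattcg
The stretch of Mt1 (chr8:94178839-94179081, plus strand) held 1 glucocorticoid element and 1 metal core, again in capitals.
Mt1: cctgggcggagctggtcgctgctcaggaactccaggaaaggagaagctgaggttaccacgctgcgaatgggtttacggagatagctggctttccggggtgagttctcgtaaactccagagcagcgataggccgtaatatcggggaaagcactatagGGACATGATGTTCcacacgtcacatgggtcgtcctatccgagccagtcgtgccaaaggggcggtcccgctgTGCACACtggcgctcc
The cAMP response element TGACGTCA, present in 1.55% of all windows, was found before Dusp1 and before 1 of 2 starts of Errfi1. Positions outside these windows were not searched.

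Levels differed widely between the 10 genes once set on a scale per length (log2 RPKM, which is CPM further divided by exon length). Mt2 had the highest mean at 7.81 ± 0.36 (SD, n = 22), followed by Mt1 at 7.17 ± 0.26. Tsc22d3 (4.83 ± 0.22), Klf9 (4.50 ± 0.26) and Errfi1 (4.17 ± 0.15) formed the middle of the order. Below them came Sgk1 at 3.31, Cdkn1a at 2.87, Pdk4 at 2.13, Dusp1 at 1.34 and Zbtb16 at 0.69. Ranges over the 22 mice overlapped between each pair of neighbours in that order except Mt1 and Tsc22d3. The least abundant genes rested on few reads, 43 to 270 per library for Dusp1 and 58 to 369 for Zbtb16. The SD within groups on the log2 CPM scale was smallest for Errfi1 (0.14) and largest for Zbtb16 (0.50).

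**Figure D1:**
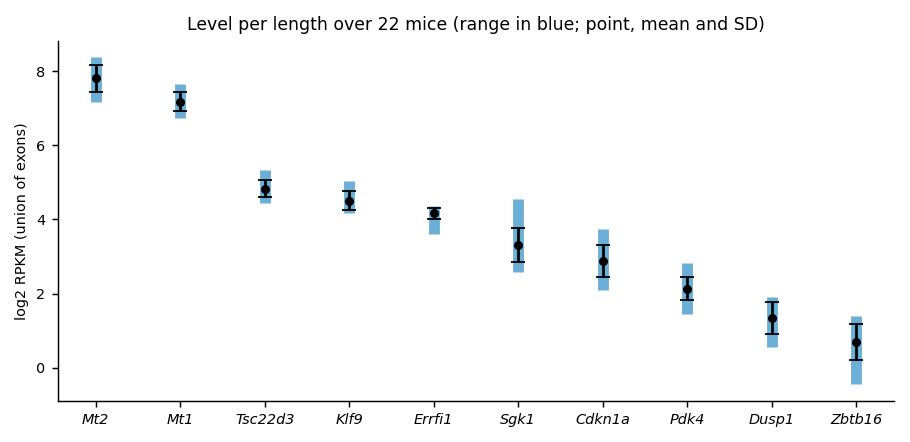
Level per length of the 10 genes over all 22 mice; the vertical axis is log2 RPKM, blue bars span the lowest to the highest mouse, and points with bars are the mean and SD. The metallothioneins Mt2 (7.81) and Mt1 (7.17) stand above the rest, and Zbtb16 (0.69) is lowest.

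None of the 10 genes passed the test for either treatment course. Late SAFit2 was set against late vehicle to ask whether FKBP51 inhibition in established pain moved receptor targets. By limma with Benjamini-Hochberg adjustment over all tested genes, 12.1% of all genes were called at an adjusted p under 0.05, and 0 of the 10 were. At an unadjusted p under 0.05, 2 of the 10 passed (Klf9 and Pdk4), against 34.5% of all genes. The median log2 fold change of the 10 was 0.05, with 6 higher and 4 lower, and that of all genes was -0.05. In size, the median absolute change was 0.18 for the 10 and 0.31 for all genes. Voom on the recovered reads also called 0 of the 10. Library quality weights called 4 (Klf9, Mt1, Dusp1 and Pdk4), where 6381 of all genes were called. Leaving out Late Vehicle replicates 2 and 6 called Klf9, Mt1 and Dusp1, where late calls over all genes also rose. The 12.1% was not stable: leaving out 1 mouse moved the 2021 genes called to between 1 and 4971, with 1 to 8 left when any of Late SAFit2 replicates 2, 4 and 5 or Late Vehicle replicates 1, 3, 4 and 5 was dropped. Late calls over all genes were 0 with a GC slope covariate or a GC and length correction and 1 without Late SAFit2 replicates 3 and 5, so the late calls of other genes named below were lost with either correction.

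Early SAFit2 against early vehicle asked the same of treatment around the onset of pain. The share of all genes called was 0%, the share past an unadjusted p under 0.05 was 2.48%, and 0 of the 10 genes passed either by limma. The median log2 fold change of the 10 was 0.06 and that of all genes 0.01. Over both courses, as a mean SAFit2 effect, 13.2% of all genes and 0 of the 10 passed an unadjusted p under 0.05. The difference between the early and late effects gave calls for 0% of all genes and 0 of the 10, while at an unadjusted p under 0.05 it took in 24.9% of all genes and 1 of the 10, Klf9. These comparisons share mice and are not separate evidence. SAFit2 and vehicle mice overlapped for all 10 genes in both courses, and groups were apart for 1.71% of all genes in the late course and 0.352% in the early course.

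**Figure D2:**
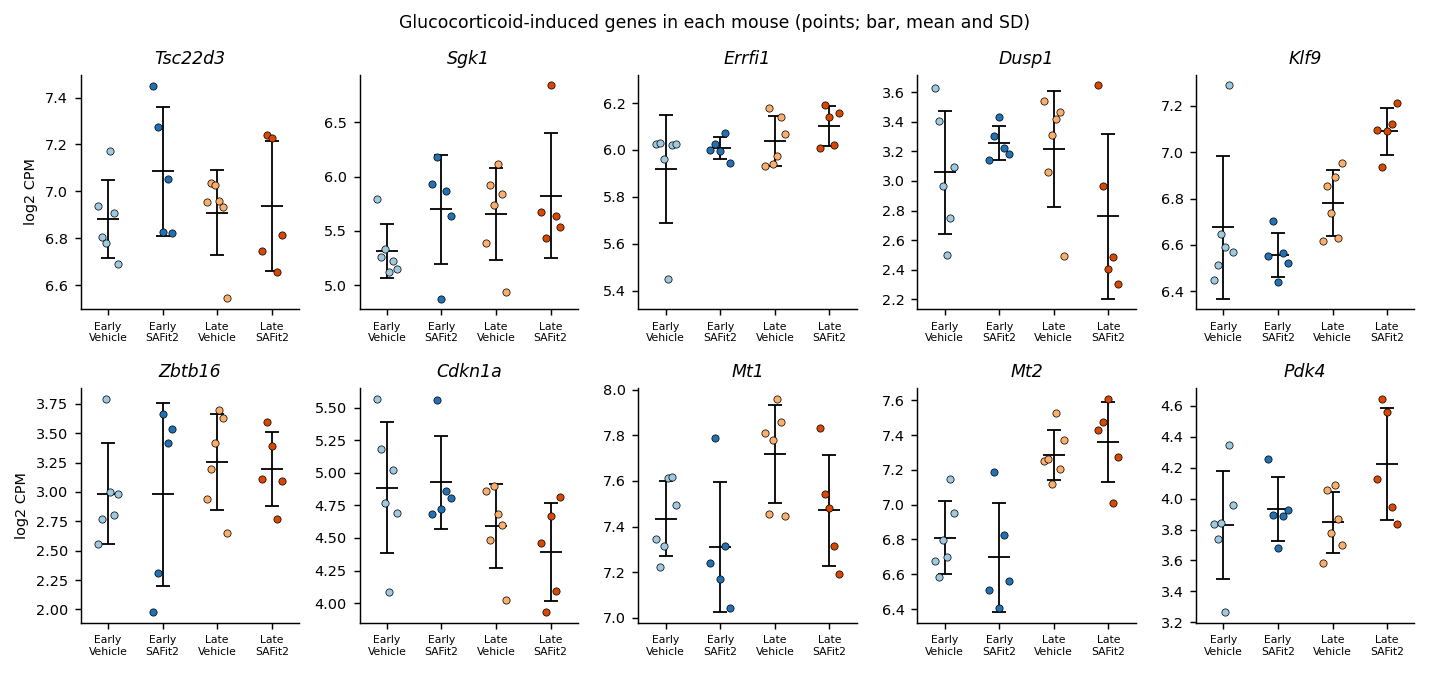
Expression of each gene in each mouse; the vertical axes are log2 CPM with a separate scale per gene, points are mice, and bars are the group mean and SD. For Klf9 the Late SAFit2 mice (6.93 to 7.21) lie above all early mice but Early Vehicle replicate 5 (7.29), and for Mt2 the lowest Late Vehicle mouse (7.12) lies above all but 1 of the Early Vehicle mice.

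Klf9 (chr19:23141226-23168134, plus strand, GRCm38), a Krüppel-like transcription factor induced by glucocorticoid and thyroid hormone, came nearest to a call. Its level was 7.10, 6.93, 7.09, 7.12 and 7.21 log2 CPM in the 5 Late SAFit2 mice. The 6 Late Vehicle mice read 6.62 at the lowest, 6.80 at the median and 6.95 at the highest. Only the lowest Late SAFit2 mouse fell inside the vehicle range, just under the highest vehicle mouse. The log2 fold change was 0.31 (SE 0.12, 95% interval 0.07 to 0.55), with a limma adjusted p of 0.0683. An exact two-sided permutation test over 462 splits gave p = 0.00649, which adjusted over all tested genes was 0.181.

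In the early course Klf9 was 6.44 to 6.70 in the 5 SAFit2 mice. The vehicle mice ran from 6.45 to 6.65 except for replicate 5, at 7.29, the highest value of any mouse. That library also stood apart in its oligodendrocyte markers. The log2 fold change was -0.12 (SE 0.12), and without Early Vehicle replicate 5 it was 0.00. The early effect minus the late effect was -0.43 (95% interval -0.77 to -0.09), with a limma adjusted p of 0.131 and an exact permutation p of 0.00957. Without that mouse the difference was -0.31 (adjusted p 0.208), and the late effect, unchanged at 0.31, was called (limma adjusted p 0.024). Without Late Vehicle replicate 6 the late effect was 0.34 (limma adjusted p 0.033).

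Libraries also bore on Klf9. With Late Vehicle replicates 2 and 6 left out, its late log2 fold change was 0.37 (limma adjusted p 0.024). With the GC slope of each library as a covariate it was 0.11 (adjusted p 1), and the difference between the early and late effects was -0.21. A correction of each library for GC content and gene length left it at 0.29 (adjusted p 0.23). Without Late SAFit2 replicates 3 and 5 the value was 0.27 (adjusted p 0.222).

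Zbtb16, which encodes the zinc-finger repressor PLZF, was the least abundant of the set and the most variable. Early SAFit2 mice fell into a low pair at 1.98 and 2.31 log2 CPM and a higher trio at 3.41 to 3.66. Early Vehicle mice spanned 2.56 to 3.79 around a median of 2.89. The late groups covered much the same ground, 2.77 to 3.60 with SAFit2 and 2.65 to 3.70 with vehicle. Log2 fold changes were -0.01 (SE 0.28) early and -0.06 (SE 0.28) late, and the late 95% interval, -0.64 to 0.51, leaves room for a change in either direction.

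Tsc22d3 encodes GILZ, an anti-inflammatory leucine-zipper protein and one of the most regular targets of the receptor. Late SAFit2 mice split into 6.66, 6.75 and 6.82 log2 CPM on one side and 7.23 and 7.24 on the other. Late Vehicle mice lay between 6.93 and 7.04 apart from replicate 6 at 6.55. Thus the vehicle mice mostly filled the gap between the treated ones, and the log2 fold change was 0.03 (SE 0.13, 95% interval -0.24 to 0.30, limma adjusted p 0.898). Its sign turned when Late Vehicle replicates 2 and 6 were left out (-0.03). Early SAFit2 mice spanned 6.82 to 7.45 and Early Vehicle mice 6.69 to 7.17, a log2 fold change of 0.20 (SE 0.13, limma adjusted p 1).

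Sgk1, a kinase that controls ion channels and transporters and is induced in oligodendrocytes by stress hormone, had the largest early difference of the set. Values were 4.88, 5.63, 5.87, 5.93 and 6.18 log2 CPM in Early SAFit2 mice. Early Vehicle mice had a low of 5.12, a median of 5.24 and a high of 5.79. Although 3 treated mice exceeded every vehicle mouse, another was below them all. The log2 fold change was 0.38 (SE 0.23, 95% interval -0.10 to 0.87), with a limma adjusted p of 1 and an exact permutation p of 0.128. It was 0.59 without Early SAFit2 replicate 3 and 0.26 without Early SAFit2 replicate 2. In the late course it was 0.17 (SE 0.23), and this rested on Late SAFit2 replicate 3 (6.84), one of the libraries with muscle genes, without which it was -0.09.

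Both feedback inhibitors of growth factor signalling were also uncalled. Errfi1 encodes MIG6, which binds and inhibits the EGF receptor, and it varied least: 21 of the 22 mice lay between 5.93 and 6.19 log2 CPM, and Early Vehicle replicate 4 read 5.45. Its log2 fold change was 0.06 (SE 0.10) late and 0.09 (SE 0.10) early. Errfi1 also gave the tightest late interval of the 10, -0.14 to 0.27.

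Dusp1 encodes a phosphatase that switches off MAP kinases and is also an immediate early gene. Late SAFit2 mice read 2.30, 2.40, 2.49, 2.96 and 3.65 log2 CPM, and Late Vehicle mice had a low of 2.49, a median of 3.36 and a high of 3.54. Most treated mice were below most vehicle mice, yet the highest value of all belonged to Late SAFit2 replicate 1. The log2 fold change was -0.45 (SE 0.24, 95% interval -0.94 to 0.03), with a limma adjusted p of 0.173 and an exact permutation p of 0.149. Without Late SAFit2 replicate 1 it was -0.67 (adjusted p 0.0357), and without Late Vehicle replicate 6 it was -0.60 (adjusted p 0.0496). With the GC slope as a covariate the sign turned, to 0.14, and without Late SAFit2 replicates 3 and 5 it was -0.18. In the early course the log2 fold change was 0.20 (SE 0.24).

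Other immediate early genes gave the setting for Dusp1. Of 10 such genes, 2 were called lower with late SAFit2 by limma, Jun (log2 fold change -0.37, adjusted p 0.0497) and Ier2 (-0.85, adjusted p 0.0443), and 0 higher. That stood against 12.1% of all genes. By sign alone 4 of the 10 were higher and 6 lower. With early SAFit2 0 of 10 were called and 0 passed an unadjusted p under 0.05. The group means of all 10 were above vehicle, by 0.01 (Fosb) to 0.32 (Fos).

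**Figure D3:**
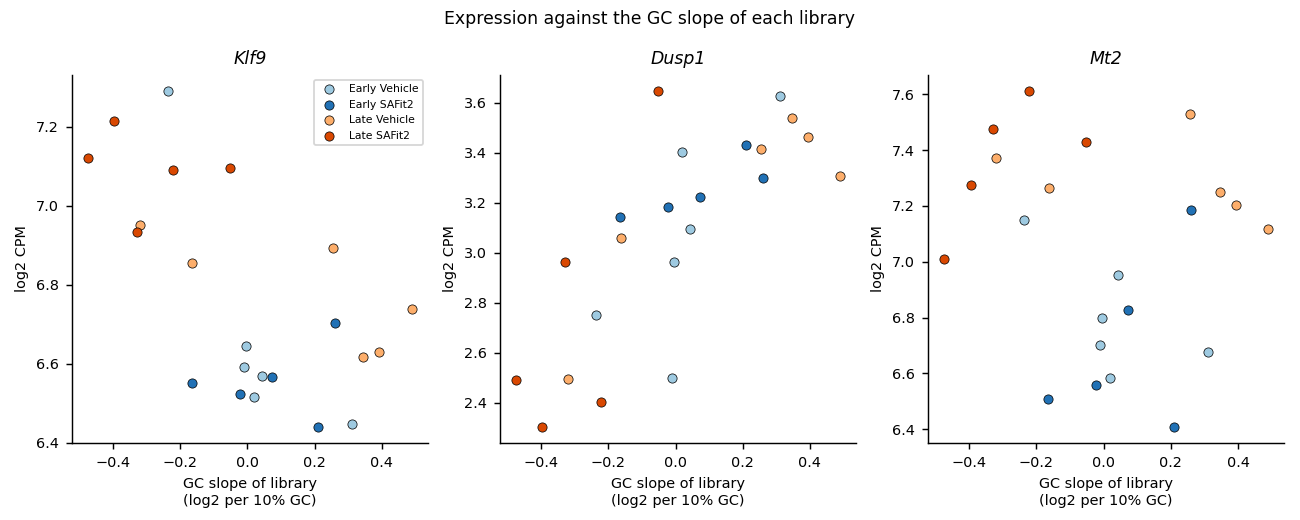
Expression of Klf9, Dusp1 and Mt2 (vertical axes, log2 CPM) against the GC slope of each of the 22 libraries (horizontal axes, log2 units per 10 percentage points of GC). Late SAFit2 libraries all have negative slopes (-0.48 to -0.05); low Dusp1 and high Klf9 values lie mostly toward negative slopes, whereas Mt2 is mostly higher in late than in early mice at either sign of slope.

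Cdkn1a, the p21 inhibitor of cyclin-dependent kinases and a target of both the receptor and p53, was 3.93 to 4.82 log2 CPM in Late SAFit2 mice and 4.02 to 4.90 in Late Vehicle mice. The groups nearly coincided, differing by -0.20 on the log2 scale (SE 0.22, limma adjusted p 0.538), which became 0.24 with the GC slope as a covariate. The early value was 0.04 (SE 0.22). Among 8 tested p53 targets, late SAFit2 gave 2 higher, Ccng1 (0.49, adjusted p 0.0434) and Trp53inp1 (0.75, adjusted p 0.0324), and 1 lower, Phlda3 (-0.63, adjusted p 0.0341). The late share of all genes called was 12.1%. Early, 0 of the 8 were called.

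Pdk4, a kinase that shuts pyruvate dehydrogenase and so shifts cells toward fatty acids, had the largest positive late value. Late SAFit2 mice read 3.83, 3.95, 4.13, 4.56 and 4.65 log2 CPM. Late Vehicle mice spanned 3.58 to 4.09 around a median of 3.83. Thus 3 treated mice lay above all vehicle mice and 2 within their range. The log2 fold change was 0.38 (SE 0.18, 95% interval 0.02 to 0.74), with a limma adjusted p of 0.13 and an exact permutation p of 0.0584. It was 0.39 without Late SAFit2 replicates 3 and 5, 0.28 with the GC slope as a covariate and 0.23 after GC and length correction (limma adjusted p 0.508). Among the alternatives, this late difference was called only with library quality weights. Early it was 0.10 (SE 0.18). Of 12 genes of fatty acid oxidation and PPAR targets, late SAFit2 lowered 1, Pdk2 (log2 fold change -0.41, limma adjusted p 0.046), and raised 0. Late calls took in 12.1% of all genes.

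Mt1 (chr8:94179082-94180327) and Mt2 (chr8:94172664-94173568), neighbours on the plus strand, encode metallothioneins, small zinc- and copper-binding proteins that astrocytes make in quantity. In the late course Mt1 was 7.19 to 7.83 log2 CPM with SAFit2 and 7.45 to 7.96 with vehicle, which differed by -0.25 on the log2 scale (SE 0.13, limma adjusted p 0.183). With the GC slope as a covariate that difference was 0.00, and without Late Vehicle replicates 2 and 6 it was -0.38 (adjusted p 0.0284). For Mt2 the late ranges were 7.01 to 7.61 and 7.12 to 7.53, a difference of 0.07 (SE 0.13), which was 0.28 after GC and length correction (limma adjusted p 0.204) and 0.07 with the GC slope as a covariate. The early values were -0.12 (SE 0.13) for Mt1 and -0.11 (SE 0.13) for Mt2. SAFit2 and vehicle mice overlapped for both genes in both courses.

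Mt2 also differed between the early and late groups, whichever treatment they had received. In Early Vehicle mice it was 6.58 at the lowest, 6.75 at the median and 7.15 at the highest. In Late Vehicle mice it was 7.12, 7.26 and 7.53. Only Early Vehicle replicate 5 reached the late range, a library that stood apart in its oligodendrocyte markers. Mt2 was 1.39 times as high in late as in early vehicle mice (log2 fold change 0.48, SE 0.13, limma adjusted p 0.0162). Its exact permutation p was 0.00433, and 0.0625 after adjustment over all tested genes. By limma, Mt2 was the only gene of the 10 called, against 9.11% of all genes.

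Late and early SAFit2 mice, a comparison added after the data were seen, gave a similar value for Mt2. Early SAFit2 mice read 6.41, 6.51, 6.56, 6.83 and 7.19, and Late SAFit2 mice 7.01, 7.27, 7.43, 7.47 and 7.61. The ranges overlapped through 1 mouse on each side. Mt2 was 1.58 times as high late (log2 fold change 0.66, SE 0.14, limma adjusted p 0.0021). Its exact permutation p was 0.0159, and 0.0774 after adjustment over all tested genes. With the GC slope as a covariate both late-to-early differences were kept, 0.48 (adjusted p 0.0101) in vehicle mice and 0.66 (adjusted p 0.00879) in SAFit2 mice. Under quantile normalization the vehicle difference was not called.

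Klf9 was the other gene called between late and early SAFit2 mice, at 1.45 times (log2 fold change 0.53, SE 0.12, limma adjusted p 0.00387). Its exact permutation p was 0.00794, the smallest that 252 splits allow, and 0.0547 after adjustment over all tested genes. Its ranges, 6.44 to 6.70 and 6.93 to 7.21, did not meet. With the GC slope as a covariate it was 0.38 (adjusted p 0.051). That made 2 of the 10 called, where 20.5% of all genes were, and 1 of the 10 with groups apart, where 14.5% of all genes were. In vehicle mice Klf9 differed by 0.10 (SE 0.11), and groups were apart for 0 of the 10 against 4.92% of all genes.

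Mt1 was higher in late than early vehicle mice by 0.28 (SE 0.13, limma adjusted p 0.159), and Cdkn1a was lower in late than early SAFit2 mice with a log2 fold change of -0.53 (SE 0.23, limma adjusted p 0.0939), neither of them called. Mt1 was called without Late Vehicle replicates 2 and 6 (0.42, adjusted p 0.0246) and after GC and length correction (0.31, adjusted p 0.0208). The remaining 6 genes had adjusted p of 0.149 or more in both comparisons. Dusp1, at -0.49 between SAFit2 groups, was -0.72 and called without Late SAFit2 replicate 1 (limma adjusted p 0.0289). Since early and late mice were separate batches, none of these differences can be assigned to the time of injection.

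**Figure D4:**
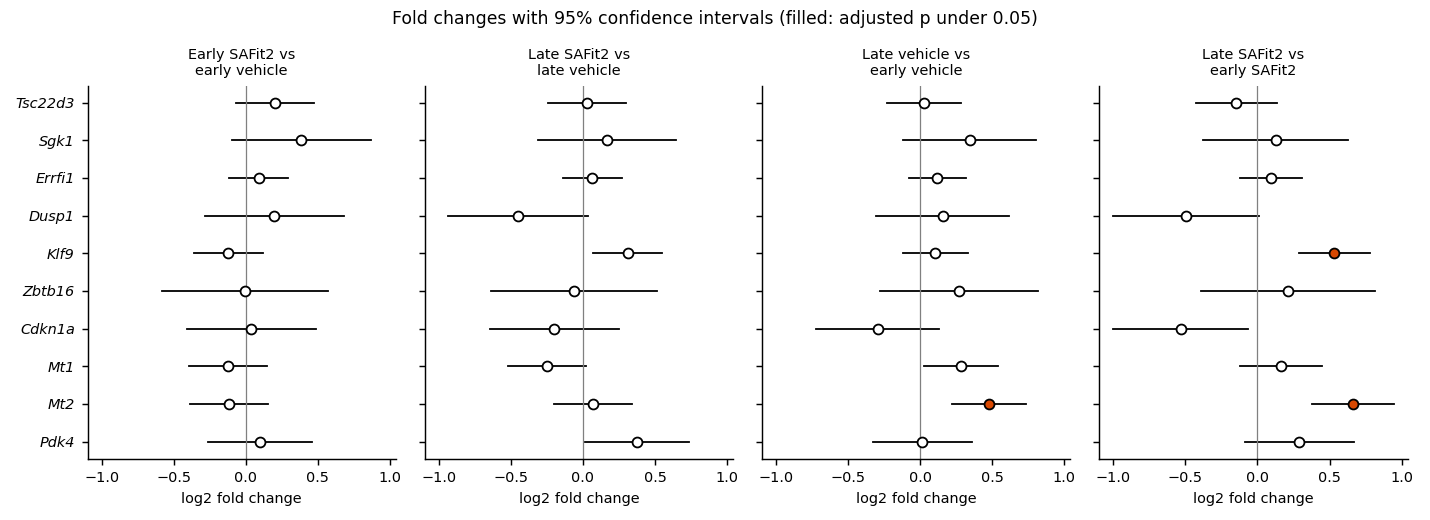
Log2 fold changes (horizontal axes) of the 10 genes with 95% confidence intervals in 4 comparisons; filled points have a limma adjusted p under 0.05. No point is filled in the SAFit2 against vehicle panels, Mt2 (0.48) is filled for vehicle, and Mt2 (0.66) and Klf9 (0.53) are filled for SAFit2.

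Some astrocyte markers were also higher in late mice. Of 6 such markers, 2 were called higher in late vehicle mice (Slc1a2 and Gja1), where 9.11% of all genes were called in either direction, and 4 in late SAFit2 mice (these and Aqp4 and Slc1a3), where 20.5% were. Gfap and Aldh1l1 were called in neither, with values for Gfap of 0.10 and 0.05. Their summed level was 3355 to 4426 CPM in Early Vehicle and 4386 to 5295 CPM in Late Vehicle mice. In Early SAFit2 mice it was 2957 to 3891 CPM and in Late SAFit2 mice 4802 to 5863 CPM. All 6 markers were detected in every group. Other cell types had called markers too. Of 5 microglial markers, 0 were called between vehicle groups and 2 between SAFit2 groups (Cx3cr1, 0.50, and P2ry12, 0.85), with all 5 higher late in both. Of 5 endothelial markers 1 was called between vehicle groups (Pecam1, 0.48) and 0 between SAFit2 groups, and of 4 blood genes 1 (Hbb-bs, 0.64) and 0. For 6 oligodendrocyte markers these counts were 1 (Cnp) and 1 (Mog), and for 6 neuronal markers 1 (Slc32a1) and 1 (Slc17a6). For 5 ependymal markers they were 0 and 2 (Ccdc153 and Tmem212), and for 5 muscle genes 0 and 1 (Tnnt3). All of these were higher late. Mt2 and Klf9 were also correlated with the mean of each marker list, on deviations from the group mean. Pearson r was -0.15 and 0.001 for astrocytes and 0.47 and 0.32 for oligodendrocytes. It was -0.04 and -0.03 for microglia and -0.29 and -0.62 for endothelial cells. For neurons it was -0.08 and -0.34, and for ependymal cells 0.04 and 0.35. Muscle genes gave 0.23 and 0.03, and blood genes 0.10 and -0.19. In tissue of mixed cells, more cells of a type and more RNA per cell cannot be told apart. The part of these cell types in the values of Mt2 and Klf9 was not tested. Of 9 other genes of the metal and oxidative response, 0 were called with early or late SAFit2, 0 between vehicle groups and 1 between SAFit2 groups, Nqo1 (0.63, adjusted p 0.0124).

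Reads of Mt1 and Mt2 should be separable, because the annotated transcripts (GENCODE M21) share no stretch of 75 bases, the read length. Of 529 such stretches in Mt2, 160 (30.2%) match the reverse strand of Gm45774, and 200 of 3547 in Cdkn1a match AC167363.2. The kit keeps strand, but whether counting used it is not given in the sources used here, so these 2 genes are less certain.

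A wider list of 18 other genes induced by glucocorticoid was read in the same way. With late SAFit2, 1 of 18 was called higher, Gjb6, a gap junction protein of astrocytes (log2 fold change 0.31, SE 0.10, limma adjusted p 0.045), and 0 lower. Over all genes 12.1% were called in either direction. The list's median log2 fold change was -0.26 and that of all genes -0.05, with 6 list genes higher and 12 lower. With early SAFit2, 0 of 18 were called and the median was 0.05. At an unadjusted p under 0.05, Gjb6 was higher and 5 genes were lower, all named after their values were seen. By the same limit 34.5% of all genes passed in either direction. Nearest to a call was Cebpd (-1.18, limma adjusted p 0.0519), followed by Per1, Rhob (-0.25), Irs2 (adjusted p 0.103) and Cebpb (-0.94). Fkbp5, which encodes FKBP51 itself, read 4.46 to 4.97 log2 CPM in Late SAFit2 mice against 4.28 to 4.60 with vehicle, or 0.29 on the log2 scale (SE 0.15, adjusted p 0.173). Its mean effect over both courses was 0.23 (limma unadjusted p 0.0376, adjusted p 0.359). Per1, a clock gene with a known response element, read -0.69 (SE 0.27, adjusted p 0.0771). Between early and late vehicle mice 1 of 18 was called, Rhob (0.33, adjusted p 0.0395), against 9.11% of all genes. Between early and late SAFit2 mice 3 were, Gjb6 (0.54) and the secreted lipocalin Lcn2 (1.60) higher late and Arrdc2 (-0.90) lower. There 20.5% of all genes were called.

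A list of 11 tested genes held the glucocorticoid and mineralocorticoid receptors, their chaperones, coregulators and an enzyme of hormone supply. Late SAFit2 raised 1 of them, Hsp90aa1, the inducible Hsp90 (log2 fold change 0.57, SE 0.19, limma adjusted p 0.046), and lowered 0. At the same limits 12.1% of all genes were called. Nr3c1, the receptor gene itself and also named after its value was seen, was 6.54 to 7.10 log2 CPM in Late SAFit2 and 6.33 to 6.88 in Late Vehicle mice (0.27, SE 0.12, adjusted p 0.0992). Early SAFit2 changed 0 of the 11. In late against early vehicle mice 3 were called higher, namely Hsd11b1, which regenerates active corticosterone inside cells (0.49, adjusted p 0.0459), Hsp90ab1 (0.32, adjusted p 0.0369) and the co-chaperone Stip1 (0.31, adjusted p 0.0348). In late against early SAFit2 mice 5 were, among them Nr3c1 (0.34, adjusted p 0.0499). The shares of all genes called were 9.11% between vehicle groups and 20.5% between SAFit2 groups.

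The 10 genes did not vary as one block from mouse to mouse. Each gene's deviations from its group mean were correlated over the 22 mice, giving 45 pairs, of which 33 had a positive r. After Benjamini-Hochberg adjustment over the 45 pairs, 0 had a permutation p under 0.05. The highest was Mt1 with Mt2 (Pearson r 0.61, permutation p 0.00846, adjusted 0.183; Spearman rho 0.51, permutation p 0.022, adjusted 0.177). It was 0.83 within the early mice, 0.34 within the late mice, 0.48 without the 2 mice farthest from the median and 0.30 after GC and length correction. Next came Errfi1 with Pdk4 (r 0.58, but 0.31 without the 2 mice farthest from the median) and Tsc22d3 with Sgk1 (r 0.56). The lowest was Dusp1 with Klf9 (r -0.46). Libraries of the same group differed in depth and in GC slope, so these values describe the libraries as well as the mice.

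**Figure D5:**
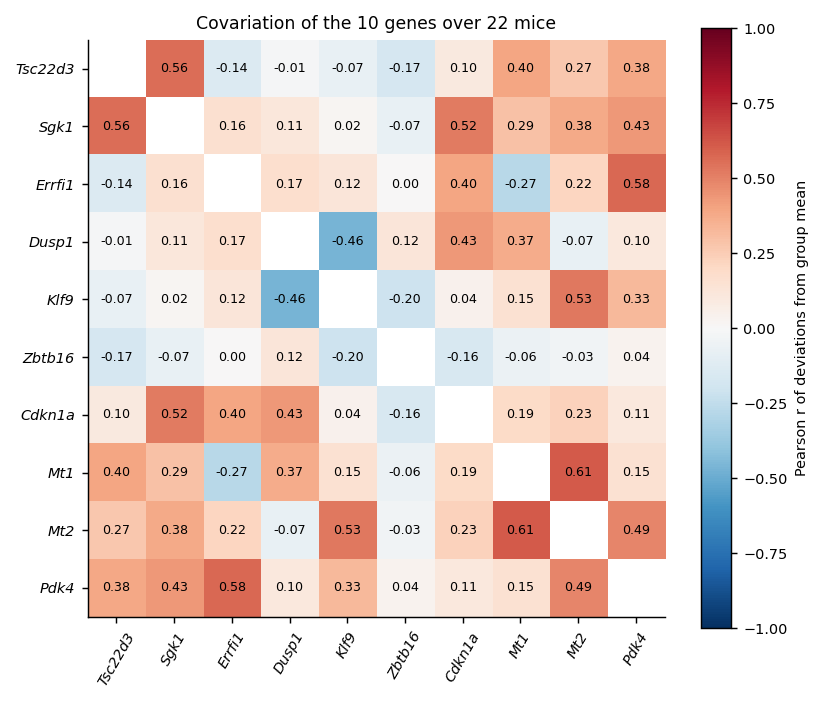
Pearson r between each pair of the 10 genes, computed over 22 mice on deviations from the group mean; red is positive and blue negative, with r written in each cell. Mt1 with Mt2 is highest (0.61) and Dusp1 with Klf9 lowest (-0.46).

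Outside the set, the genes most like each member by the same r over 22 mice were as follows, given as a description. Tsc22d3 went with Arrdc4 (0.85), Msrb1 and Fndc4. Sgk1 had Comp (0.80), 1700029I15Rik and Thpo, and Zbtb16 had Neo1 (0.76), Pcdhga2 and Pde4dip. Dusp1 was nearest Tecr (0.89), Dyrk1b and Cdc42ep4, and Klf9 nearest Ank3 (0.92), Gnaq and Ppig. For Errfi1 they were Zfp982 (0.88), Invs and Mir568, and for Cdkn1a Smtn (0.90) and Elovl1. Mt1 ran with Nudc (0.91) and Rpl36, whereas Mt2 ran with 1700008O03Rik (0.82), Bloc1s1 and Mrpl20. Pdk4 was closest to a transcript without a symbol (0.82), Snhg3 and Mpc1-ps. No gene stood among the 3 nearest of more than 1 member. Some members also went with the GC slope of the library by this r: Dusp1 0.72, Cdkn1a 0.54, Mt1 0.53 and Klf9 -0.51. The remaining members lay between -0.16 and 0.29.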

How the data were processed

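Libraries were made by the authors from mRNA with a directional kit and sequenced as 75-base read pairs, and the submitters' processing notes name Trimmomatic, HISAT2, edgeR and the mm10 genome. The deposited values are log2 CPM that the authors computed with edgeR and scaled by library (a prior count of 2 was inferred from the lowest values); per the study's methods genes were counted with featureCounts. Inverting that scale gave whole reads for 100.0% of values below 1000 reads (within 0.02 reads), 11352989 to 24433349 per library.

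A gene was tested if 5 libraries reached a log2 CPM of -1, which 16765 of 17306 did. All 22 mice were fitted in 1 model of 4 groups with limma 3.58.1 (R 4.3.3), with a variance trend and Benjamini-Hochberg adjustment, on the deposited log2 values. Single genes were also tested by exact two-sided permutation of mice. GC content was known for 96.5% of genes. Each library is taken as 1 mouse. The limma p-values set a group difference against the spread of mice within the 4 groups. That spread was moderated by the trend over all tested genes.

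Members and lists were chosen with earlier results of these data known. The rule for genes named took all 10 members, each list gene called for the early or late effect or their difference (otherwise, in the glucocorticoid and receptor lists, the 2 of lowest late p), and the 3 genes most like each member; list genes called between early and late groups were added after their values were seen. Some genes that this rule takes are not reported here. Alternatives were other filters, offsets added to the CPM, variance models, scalings, voom on reads, GC and length correction, a replicate block and leaving out each mouse. Replicate numbers did not pair mice: of 10 same-number pairs, 2 had a correlation over 0.1 (-0.24 to 0.32).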

Additional observations from a re-analysis of the deposited data

Results flagged for a closer look

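Within groups of 5 or 6 mice, 7 of 40 gene-and-group sets held a mouse far from the others by Dixon's test, where chance gives about 1 in 20. In Early Vehicle mice these were Klf9 in replicate 5 (7.29 log2 CPM, next 6.65), Sgk1 in replicate 1 (5.79, next 5.33), Zbtb16 in replicate 3 (3.79, next 3.00) and Errfi1 in replicate 4 (5.45, next 5.96). Cdkn1a stood out in Early SAFit2 replicate 2 (5.56, next 4.86), Sgk1 in Late SAFit2 replicate 3 (6.84, next 5.67) and Tsc22d3 in Late Vehicle replicate 6 (6.55, next 6.93).

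The SAFit2 effect on Klf9 differed between the early and late courses by -0.43 on the log2 scale (exact permutation p 0.00957, limma adjusted p 0.131), which did not pass after adjustment over all genes.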

How the results depend on the processing

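Counts of called members moved as follows. Library quality weights called 4 late (Klf9, Mt1, Dusp1, Pdk4), 2 for the early-late difference, 2 between vehicle groups and 4 between SAFit2 groups, and put 6 past an unadjusted p under 0.05 for the mean effect. Leaving out Late Vehicle 2 and 6 called 3 late (Klf9, Mt1, Dusp1), 2 for the difference (Klf9, Dusp1) and 2 between vehicle groups (Mt1, Mt2). Between vehicle groups quantile normalization called 0, and GC and length correction 2 (Mt1, Mt2), also with the replicate block. The GC slope covariate called 1 between SAFit2 groups (Mt2). For the mean effect quantile normalization gave 2 (Mt1, Pdk4), voom 1 (Pdk4), the GC slope covariate 1 (Sgk1) and leaving out Late Vehicle 2 and 6 gave 1 (Mt1). Leaving out each mouse gave 0 to 2 late (Klf9 without Early Vehicle 5, Dusp1 without Late SAFit2 1, both without Late Vehicle 6) and 0 to 2 for the mean effect. With the replicate block, whose numbers do not pair mice, member calls were 0 late, 0 early, 1 between vehicle groups and 2 between SAFit2 groups, as without it, and late calls over all genes were 3157. Over all genes the late comparison called 2021, but 62 without a variance trend, 876 by voom, 1231 after quantile normalization, 6381 with quality weights, 6217 without Late Vehicle 2 and 6, 1 without Late SAFit2 3 and 5, and 0 with only the groups compared, GC and length correction or the GC slope covariate. Counts over all genes between vehicle groups (1527) were 5067 with quality weights, 3012 with GC and length correction, 2912 with the block added, 2292 with the GC slope covariate and 3300 without Late Vehicle 2 and 6. Between SAFit2 groups (3437) they were 5162 with quality weights, 1215 with the GC slope covariate and 1980 without Late SAFit2 3 and 5. Past an unadjusted p under 0.05 for the mean effect (2215) they were 6396 with quality weights, 5145 without Late Vehicle 2 and 6, 1361 with GC and length correction, 1344 with the block added and 924 with the GC slope covariate. For the early-late difference (0) they were 5082 with quality weights, 4360 without Late Vehicle 2 and 6 and 2 without a variance trend, and for the early effect (0) 13 with quality weights. Leaving out each mouse moved these counts to 1 to 4971 (late), 944 (without Late Vehicle 1) to 2482 (without Late Vehicle 6) between vehicle groups, 2201 (without Early SAFit2 3) to 3957 between SAFit2 groups, 1313 (without Early SAFit2 1) to 3780 (without Late Vehicle 6) for the mean effect and 0 to 2513 (without Late Vehicle 6) for the early-late difference, and left the early count at 0. The cause was not tested. The early comparison called 0 members under all of these alternatives.

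Members changed sign as follows, none of them called in the main comparison or under the setting; log2 fold changes follow. Quantile normalization gave Tsc22d3 -0.0111, Zbtb16 0.0153 (late), Zbtb16 0.0186 (early), Zbtb16 0.017 (mean), Tsc22d3 -0.0825 (vehicle groups), Mt1 -0.0134 (SAFit2 groups). The replicate block gave Tsc22d3 -0.0273 (late), Cdkn1a -0.0374 (early), Mt2 0.0016 (mean). That block with GC and length correction gave Tsc22d3 -0.0292, Zbtb16 0.199, Cdkn1a 0.0341 (late), Cdkn1a -0.0086 (early), Zbtb16 0.046, Cdkn1a 0.0128, Mt2 0.156 (mean), Zbtb16 -0.306, Cdkn1a -0.0427 (early minus late). Leaving out Late Vehicle 2 and 6 gave Tsc22d3 -0.0309 (late), Errfi1 -0.0167 (early minus late), Pdk4 -0.0013 (vehicle groups). Leaving out Late SAFit2 3 and 5 gave Tsc22d3 -0.0277, Sgk1 -0.0772 (late), Dusp1 0.0093 (mean), Sgk1 -0.119 (SAFit2 groups). GC and length correction gave Zbtb16 0.237, Cdkn1a 0.0867 (late), Zbtb16 0.084, Dusp1 0.0088, Cdkn1a 0.0653, Mt2 0.12 (mean), Zbtb16 -0.306, Cdkn1a -0.0427 (early minus late). The GC slope covariate gave Zbtb16 0.217, Dusp1 0.135, Cdkn1a 0.243 (late), Cdkn1a -0.0098 (early), Zbtb16 0.0904, Dusp1 0.135, Cdkn1a 0.117 (mean), Sgk1 -0.0752, Zbtb16 -0.253, Dusp1 -0.0008, Cdkn1a -0.253, Mt1 -0.15 (early minus late), Dusp1 -0.0297 (vehicle groups). An offset of 0.5 CPM gave Zbtb16 0.0008 (early). An offset of 2 CPM gave Zbtb16 0.0151 (early). Library quality weights gave Zbtb16 0.209, Cdkn1a -0.0708 (early), Zbtb16 0.0555, Mt2 0.0572 (mean), Errfi1 -0.0685 (early minus late), Pdk4 -0.0009 (vehicle groups), Tsc22d3 0.0028 (SAFit2 groups). Median centring gave Errfi1 -0.0084 (early minus late). Voom gave Pdk4 -0.0021 (vehicle groups). Leaving out each mouse gave Tsc22d3 -0.0481 to 0.098 (late), Sgk1 -0.0874 to 0.265 (late), Zbtb16 -0.182 to 0.0441 (late), Zbtb16 -0.175 to 0.245 (early), Klf9 -0.165 to 0.0031 (early), Errfi1 -0.0038 to 0.112 (early), Cdkn1a -0.121 to 0.175 (early), Pdk4 -0.0144 to 0.201 (early), Zbtb16 -0.118 to 0.0916 (mean), Mt2 -0.0821 to 0.0229 (mean), Zbtb16 -0.114 to 0.306 (early minus late), Errfi1 -0.068 to 0.0477 (early minus late), Tsc22d3 -0.0111 to 0.0993 (vehicle groups), Pdk4 -0.0985 to 0.117 (vehicle groups), Sgk1 -0.129 to 0.246 (SAFit2 groups), Zbtb16 -0.0382 to 0.382 (SAFit2 groups). Depth limits Dusp1 and Zbtb16 most, at 43 to 270 and 58 to 369 reads per library.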

Other observations

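Ependymal cells are the ciliated lining of the central canal. Of 5 of their markers, 3 fell with late SAFit2 by limma (Foxj1, Rarres2 and Dnah11), where 12.1% of all genes were called in either direction. The median log2 fold change was -0.86. With early SAFit2 0 were called, and the median was -1.82. By limma 3 of the 5 (Dnah11, Ccdc153 and Tmem212) were lower at an unadjusted p under 0.05, against 2.48% of all genes. In Early SAFit2 mice Dnah11, Ccdc153 and Tmem212 had means of -1.79, -2.62 and -2.96 log2 CPM, where 0 reads is -3.15. In Early Vehicle mice their means were 0.03, 1.59 and -0.25, with wide SDs of 1.17, 2.30 and 1.54. Early values were 0.02 for Foxj1 and -0.35 for Rarres2. Dnah11 was also low in Late SAFit2 mice (mean -2.08 log2 CPM). Their summed level was 17.4 to 43.0 CPM in Late SAFit2 and 30.5 to 62.5 CPM in Late Vehicle mice. Late calls in other lists of cell type markers and in the clock list were Slc32a1 lower of 6 neuronal genes, Cldn5 lower of 5 endothelial genes, Nr1d1 and Cry2 lower of 10 clock genes, Tnnt3 higher of 5 muscle genes (whose sum was 196 and 143 CPM in Late SAFit2 replicates 3 and 5 and at most 8.92 CPM elsewhere), and 0 of the astrocyte, oligodendrocyte, microglia and blood genes. These late calls were lost with the GC slope covariate, under which 0 of all genes were called, but that slope went largely with late treatment. In early SAFit2 mice 0 genes of any list were called.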
